A study of Bos taurus with 6 samples.

Results

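The fibroblast growth factor (FGF) receptors and ligands of bovine adipocytes were examined as 10 genes, found by their symbols among the 23475 rows of the expression table. They comprised 5 receptors, FGFR1, FGFR2, FGFR3, FGFR4 and FGFRL1, and 5 ligands, FGF1, FGF2, FGF7, FGF10 and FGF18. The study isolated preadipocytes, the precursors of fat cells, from the subcutaneous fat of 3 calves and transfected them with a bta-miR-484 agomir or with the bta-miR-484 agomir NC. An agomir is a modified double-stranded RNA that raises the amount of one miRNA in a cell, and the NC is its negative control, called the control from here on. RNA was collected 48 h after transfection and sequenced as 3 libraries a group, all from cells grown in the same high-glucose medium with fetal bovine serum, and neither group was left untransfected. Whether the libraries of a group came from different calves is not stated, so the spread between them may be technical.

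Expression is given as FPKM, that is, fragments scaled to transcript length and to the mapped fragments of the library, which allows genes to be compared per unit of length. Summed over all genes, the libraries held between 365977 and 379361 FPKM, but FPKM holds no read numbers, so sequencing depth is unknown. Values near 0 therefore carry a counting error that cannot be given here. Differences are given on the log2(FPKM + 0.5) scale, where 0.5 is a pseudocount that understates the difference of genes with low values.

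Most FGFs are secreted proteins that bind receptor tyrosine kinases at the cell surface, with heparan sulfate chains holding ligand and receptor together. The activated receptor phosphorylates the docking protein FRS2, which passes the signal through GRB2 and SOS to RAS and the MAP kinases, and Sprouty and DUSP proteins dampen it in return. In fat, FGF2 is a mitogen for preadipocytes and FGF10 from stromal cells takes part in adipogenesis, while FGF7 and FGF10 act mainly on a splice form of FGFR2 found in epithelia.

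The labels call the cells adipocytes, but markers of preadipocytes and fibroblasts were mostly high and the genes that define mature fat cells were low or near 0. COL3A1, a fibrillar collagen gene, had a mean of 7623 FPKM over the 6 libraries, and PDGFRA, a receptor gene of preadipocytes, averaged 165 FPKM in agomir cells against 167 FPKM in controls. Of the genes that define mature fat cells, ADIPOQ (adiponectin) was at 0.115 and 0.165 FPKM and LEP (leptin) at 0.012 and 0.0059 FPKM in the same order. DLK1, a preadipocyte marker, was listed at 0 in every library and CD34 was at 0.43 and 0.53 FPKM. None of the 10 epithelial markers reached a mean of 0.5 FPKM, the most abundant being EPCAM at 0.157 FPKM. KRT5, KRT14 and KRT18 were listed at 0 in every library, and the 10 markers summed to between 0.361 and 0.752 FPKM in any library.

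Among the receptors, FGFR1 stood far above the others in every library. It was at 50.0, 49.7 and 50.5 FPKM in agomir cells against 49.2, 48.8 and 49.0 FPKM in controls. This placed it at rank 1146 of the 23475 rows by mean FPKM. The next receptor, FGFR2, had a mean of 0.423 FPKM over the 6 libraries, so that the mean of FGFR1 was 117 times higher. FGFR1 made up between 97.7% and 98.2% of the summed FPKM of the 5 receptors in any library.

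The other 4 receptors all lay under a mean of 0.5 FPKM, the minimum set for the test across genes. FGFR2, with a splice form in epithelia, was at 0.346, 0.353 and 0.473 FPKM in agomir cells against 0.429, 0.472 and 0.461 FPKM in controls. FGFR3, best known as a brake on cartilage growth, was at 0.518, 0.401 and 0.405 FPKM in agomir cells against 0.171, 0.261 and 0.320 FPKM in controls. FGFRL1, a receptor that lacks the kinase domain, was between 0.105 and 0.215 FPKM. FGFR4, the receptor for bile-acid signaling in the liver, was between 0.0563 and 0.188 FPKM. In the order FGFR1, FGFR2, FGFR3, FGFRL1 and FGFR4, the first step exceeded the spread of the 6 libraries, and at each later step the ranges of neighbors overlapped. Within each of the 6 libraries FGFR3 was still above FGFRL1, with a ratio of means of 2.045.

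The ligands were ordered more evenly. FGF7, also called keratinocyte growth factor, was at 98.0, 102 and 99.4 FPKM in agomir cells against 83.2, 82.4 and 97.2 FPKM in controls. It was the most abundant of the 10 genes in every library, above FGFR1 by 1.69 to 2.05 times. FGF2, or basic FGF, was at 8.002, 7.44 and 8.07 FPKM in agomir cells against 7.84, 7.46 and 8.12 FPKM in controls. FGF18, a ligand known from bone and cartilage, was between 4.37 and 6.26 FPKM in the 6 libraries.

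FGF10 was at 3.88, 4.03 and 3.01 FPKM in agomir cells against 2.74, 2.87 and 2.80 FPKM in controls. FGF1, or acidic FGF, a ligand that binds all FGF receptors with a kinase, was between 0.149 and 0.362 FPKM and so stayed under the minimum for the test. From FGF7 down to FGF2, FGF18, FGF10 and FGF1, the ranges of neighbors did not overlap at any step. FGF7 alone made up between 83.6% and 86.3% of the summed FPKM of the 5 ligands.

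**Figure D1:**
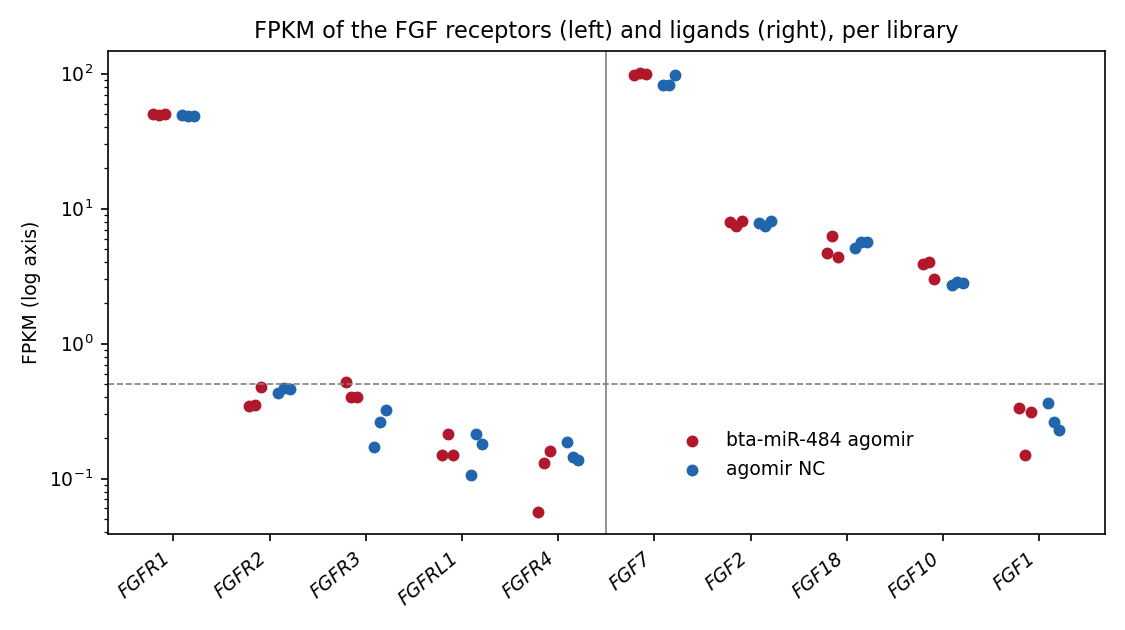
FPKM (log axis) of the 5 receptor genes and the 5 ligand genes in each of the 3 agomir and 3 agomir NC libraries, 1 point per library. The dashed line marks 0.5 FPKM, the mean required for the test across genes, with FGFR1 near 50 FPKM far above the other receptors and FGF7 highest among the ligands.

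The agomir and control libraries were compared to ask whether any of these genes differed with bta-miR-484. FGF7 and FGF10 had the largest differences among the 5 members that could be tested, both higher with the agomir. Neither passed the threshold after adjustment over all 12422 genes tested. In limma's moderated test of log2(FPKM + 0.5), 0 of the 5 tested members had an adjusted p under 0.05, as against 0.00805% of all genes tested. At an unadjusted p under 0.05 there were 2 of 5, both higher, where 10.9% of all genes tested lay under that value and 6.63% did so with higher expression in the agomir group. The median log2 fold change of the 5 tested members was 0.032, beside 0.013 over all genes tested. Fewer cells of a type and less RNA per cell cannot be told apart in these values.

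FGF7 averaged 99.7 ± 1.88 FPKM in agomir cells against 87.6 ± 8.33 FPKM in controls (SD, n = 3 each). All 3 agomir libraries lay above all 3 control libraries, although control replicate 3, at 97.2 FPKM, came within 1 FPKM of the lowest agomir library. Limma gave a log2 fold change of 0.19 (standard error, SE, 0.063, 95% interval 0.050 to 0.33), an unadjusted p of 0.0131 and an adjusted p of 0.35. When control replicate 3 was left out, the log2 fold change was 0.27 with an adjusted p of 0.164 in limma, in a range of adjusted p from 0.164 to 0.602 over all 14 other settings.

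FGF10 averaged 3.64 ± 0.554 FPKM in agomir cells against 2.80 ± 0.0638 FPKM in controls (SD, n = 3 each). The groups did not overlap, and the spread lay on the agomir side, where replicate 3 at 3.01 FPKM was close to the controls. Here limma gave a log2 fold change of 0.32 (SE 0.11, 95% interval 0.063 to 0.57), an unadjusted p of 0.0197 and an adjusted p of 0.376. Both genes depended on single libraries for the unadjusted threshold. When control replicate 1 was left out, limma gave FGF7 an unadjusted p of 0.0528 and an adjusted p of 0.443, and FGF10 an unadjusted p of 0.0502 and an adjusted p of 0.437. FGF10 also had an unadjusted p of 0.0691 and an adjusted p of 0.549 when agomir replicate 1 was left out, and without agomir replicate 2 these were 0.0777 and 0.637.

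FGFR1 averaged 50.1 ± 0.376 FPKM in agomir cells against 49.0 ± 0.222 FPKM in controls (SD, n = 3 each). The libraries did not overlap, but the means differed by a ratio of 1.02. Limma gave a log2 fold change of 0.032 (95% interval -0.058 to 0.12, adjusted p = 0.815). When libraries were scaled by median ratios, FGFR1 was at 50.0, 49.0 and 50.4 FPKM in agomir cells against 49.4, 49.4 and 49.0 FPKM in controls, and the groups overlapped.

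FGF2 and FGF18 showed no difference beyond their spread. FGF2 averaged 7.83 ± 0.347 and 7.81 ± 0.331 FPKM with the agomir and the agomir NC (SD, n = 3 each), and the 95% interval of its log2 fold change ran from -0.15 to 0.16. FGF18 was at 4.67, 6.26 and 4.37 FPKM in agomir cells against 5.08, 5.63 and 5.67 FPKM in controls. Agomir replicate 2 was the highest of the 6 libraries and the other agomir libraries were the lowest. The log2 fold change of FGF18 was -0.10 (95% interval -0.38 to 0.17, limma adjusted p = 0.80). This value rested on single agomir libraries. It was -0.25 without replicate 2 (limma unadjusted p of 0.0281, 0.569 adjusted), -0.054 without replicate 1 (0.708 and 0.922) and -0.010 without replicate 3 (0.936 and 0.988).

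Of the 5 members under the minimum, only FGFR3 had groups that did not overlap, with the agomir libraries higher. Such a parting was found in 3.44% of the 6045 genes that were under the minimum but above 0 in some library. Among the tested members it was found in FGFR1, FGF7 and FGF10, 3 of 5, and in 10.9% of all genes tested. FGFR3 averaged 0.441 ± 0.0661 FPKM in agomir cells against 0.251 ± 0.0751 FPKM in controls (SD, n = 3 each), a ratio of 1.76. An exact permutation of the libraries had a two-sided p of 0.1, and groups of 3 cannot reach a smaller one. In a limma fit of all genes above 0 without the minimum, the unadjusted p was 0.0195 and the adjusted p was 0.488.

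The order of FGFR2 and FGFR3 also varied between libraries. The ratio of FGFR3 to FGFR2 was 1.49, 1.14 and 0.856 in the agomir libraries and 0.399, 0.553 and 0.694 in the control libraries. Thus FGFR3 exceeded FGFR2 in 2 agomir libraries and in none of the control libraries (exact permutation of the ratio, two-sided p = 0.1). SOX9, a transcription factor gene of cartilage cells, was at 3.84, 5.22 and 3.02 FPKM in agomir cells against 2.54, 2.94 and 3.62 FPKM in controls. Its groups overlapped, and limma gave an unadjusted p of 0.0818 and an adjusted p of 0.518. SOX9 was the most abundant of the 4 cartilage markers, whose summed level was 3.85, 5.23 and 3.04 FPKM against 2.57, 2.94 and 3.62 FPKM. The defining cartilage markers COL2A1, ACAN and COL9A1 had means of at most 0.0067 FPKM in either group. The part of these genes in the FGFR3 values was not tested.

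FGFR2, FGFR4, FGFRL1 and FGF1 had overlapping groups. FGFR2 averaged 0.391 ± 0.0714 FPKM in agomir cells against 0.454 ± 0.0227 FPKM in controls (SD, n = 3 each, exact permutation p = 0.4). FGFR4 averaged 0.116 ± 0.0537 and 0.157 ± 0.0270 FPKM in the same order (SD, n = 3 each, exact p = 0.4). Both differences moved with single libraries. On the log2 scale FGFR2 was at -0.10, and at -0.066 without agomir replicate 1 and -0.17 without agomir replicate 3. FGFR4 was at -0.097, at -0.026 and -0.15 without the same libraries, and at -0.063 without control replicate 1. The ratios of the group means were 1.02 for FGFRL1 and 0.931 for FGF1, and both differences changed sign when agomir replicate 2 or control replicate 1 was left out. At these levels the absence of a difference could not be told from too little depth.

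As a share of receptor expression, FGFR1 did not differ beyond the spread, at 97.8% ± 0.104 with the agomir and 97.9% ± 0.239 with the agomir NC (SD, n = 3 each, exact permutation p = 0.7). Summed ligand expression was 115, 120 and 115 FPKM with the agomir and 99.2, 98.6 and 114 FPKM with the agomir NC. The groups of this sum did not overlap (exact permutation, two-sided p = 0.1), and FGF7 made up most of it.

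**Figure D2:**
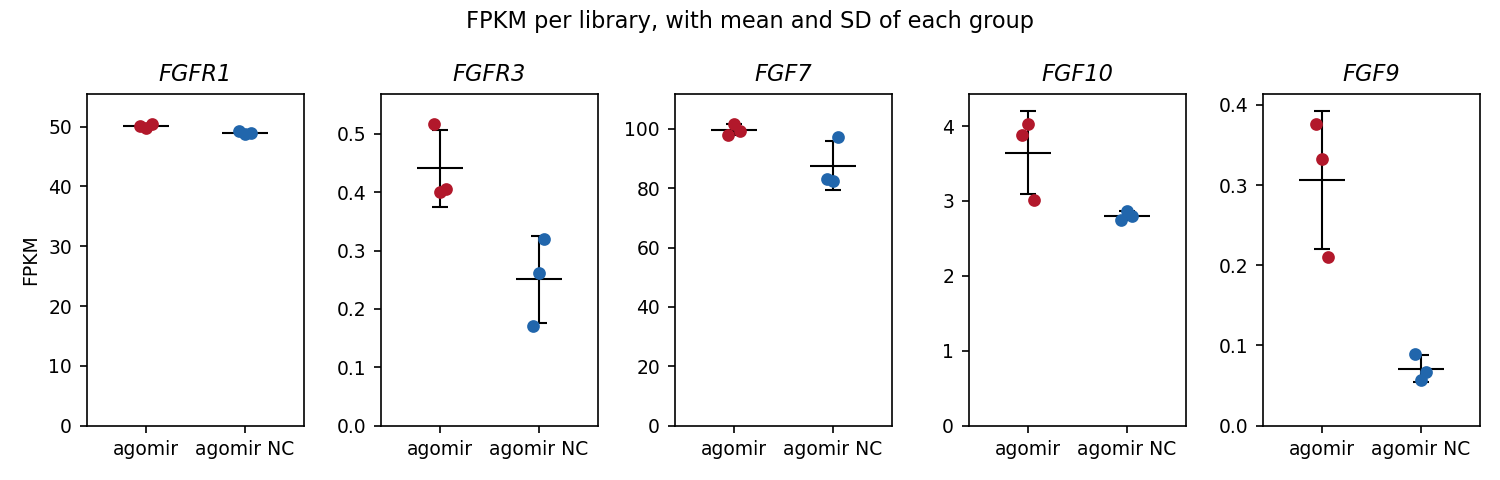
FPKM of FGFR1, FGFR3, FGF7, FGF10 and FGF9 in each of the 3 agomir and 3 agomir NC libraries (points), with the mean (long bar) and SD (whiskers) of each group, on linear axes from 0. The genes are the 4 members whose groups do not overlap, and FGF9, described after its values were seen. The agomir libraries thus lie above the agomir NC libraries in all 5 genes, by a ratio of means of 1.02 for FGFR1 and 1.14 for FGF7. With median-ratio scaling the groups of FGFR1 overlap.

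The study lists real-time PCR primers for FGFR2 and FGFR3 among those for checking its sequencing. It describes that PCR as covering differentially expressed genes and reports that the PCR bore out the sequencing. The PCR values were not among the data used here. The primers are shown because a primer pair reads a short stretch of a transcript, whereas FPKM covers the whole gene. Both genes are at the low end of the FPKM scale. The FGFR2 primers hold 33.3% (forward) and 38.9% (reverse) G and C bases, and the FGFR3 primers 57.1% and 50.0%. All are given 5′ to 3′ in lower case.
FGFR2 forward: aactgtatatgatgatgagag
FGFR2 reverse: atccaagtcttctaccaa
FGFR3 forward: gtccttggagtccagctcatc
FGFR3 reverse: tatccgtggcgtcatctttc

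The 3 genes whose log2 values followed FGF7, the most abundant member, most closely over the 6 libraries were PGP, BRCC3 and RNF111. After each gene's own mean was removed, they differed from FGF7 by a root mean square of 0.027, 0.028 and 0.029 on the log2 scale. PGP was at 13.4, 13.3 and 13.5 FPKM in agomir cells against 11.3, 11.4 and 13.0 FPKM in controls, and so shared the high control replicate 3. This likeness is a description over 6 libraries of 12422 genes.

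Besides the 10 members, 17 further genes of the FGF family were in the table, among them FGF11, FGF12, FGF13 and FGF14, whose products stay inside the cell. Of the 17, 7 were listed at 0 in every library. Only FGF16 reached a mean of 0.5 FPKM, at 1.18 ± 0.424 FPKM in agomir cells against 1.15 ± 0.416 FPKM in controls (SD, n = 3 each), with an adjusted p of 0.976 in limma. It thus lay above FGF1. FGF9 and FGF21, described here after their values were seen, had groups that did not overlap, with the agomir libraries higher. Over all genes under the minimum but above 0 in some library, 3.44% parted in this way.

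FGF9, a ligand of mesenchyme and gonad, was at 0.377, 0.333 and 0.210 FPKM in agomir cells against 0.0897, 0.0571 and 0.0664 FPKM in controls. The ratio of the means was 4.31, and the lowest agomir library lay above the highest control library. FGF9 stayed under 0.5 FPKM in all 6 libraries. Its log2 difference of 0.49 was 1.23 with a pseudocount of 0.1 and 0.28 with 1. In limma with no minimum its unadjusted p was 0.00153 and its adjusted p was 0.384. FGF21, a metabolic hormone that needs the co-receptor beta-Klotho, had 0.0610, 0.0898 and 0.0408 FPKM in agomir cells and was listed at 0 in the 3 control libraries. In the whole table, 29 genes were above 0 in all agomir libraries and at 0 in all control libraries, and 33 showed the reverse.

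The remaining genes of the pathway were taken from 6 lists besides these FGF genes, and together with them 87 of 115 genes in the table could be tested. None had an adjusted p under 0.05 in limma, where the lowest was 0.225. At an unadjusted p under 0.05 there were 20 genes, 11 higher and 9 lower with the agomir, or 23.0% of those tested, beside 10.9% of all genes tested. The median log2 fold change over the 87 genes was 0.022, beside 0.013 over all genes tested. The count of 20 dropped to 11 without agomir replicate 3 and to 10 without control replicate 2. Over all 12422 genes tested, the count of 1359 dropped to 1102 and 1191 in the same settings. For FLRT2, SDC2, NRAS, DUSP6, JUN and CCND1, the unadjusted p stayed under 0.05 in each of the 14 other settings tried. The other named genes of the 20 each lost it when at least 1 library was left out.

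Of 10 co-receptor and FGF-binding genes in the table, 6 lay under the minimum. KL, the gene of alpha-Klotho, was listed at 0 in every library, and KLB, the gene of beta-Klotho, was between 0.0596 and 0.166 FPKM. Of the 4 genes tested, FLRT2 and NCAM1 were higher with the agomir at an unadjusted p under 0.05, and the median log2 fold change was 0.13. The share of all genes tested that were higher at that p was 6.63%. FLRT2, which encodes a membrane protein of a family that binds FGF receptors, was the most abundant, at 34.9, 38.0 and 35.2 FPKM in agomir cells against 32.2, 30.9 and 30.6 FPKM in controls. All agomir libraries were above all control libraries, with a log2 fold change of 0.20 (SE 0.052, limma adjusted p = 0.278). NCAM1, a cell adhesion gene, had a log2 fold change of 0.26, with an unadjusted p of 0.0367 (0.425 adjusted) in limma. It was 0.16 without control replicate 2 (limma unadjusted p of 0.145, 0.628 adjusted).

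Heparan sulfate is the sugar chain that helps most secreted FGFs bind their receptors. Of 19 of its genes tested, 5 were lower and none was higher at an unadjusted p under 0.05, where 4.31% of all genes tested were lower at that p. Over the 19 genes the median log2 fold change was -0.070, with 7 above 0 and 12 below. The core protein gene SDC2 (syndecan 2) was at 30.3, 30.8 and 29.5 FPKM in agomir cells against 32.8, 36.0 and 36.9 FPKM in controls. Its groups did not overlap, and its log2 fold change was -0.22 (SE 0.056, limma adjusted p = 0.273). SDC1 (syndecan 1) and EXT2, an enzyme gene of chain elongation, also had groups that did not overlap, with log2 fold changes of -0.12 each. Of the 5 lower genes, SDC2 alone stayed under an unadjusted p of 0.05 in limma without agomir replicate 3 (0.0137, 0.521 adjusted).

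GPC4 (glypican 4) and SULF1, an enzyme gene that trims sulfate from the chains, had log2 fold changes of -0.23 and -0.21 with overlapping groups. Without agomir replicate 3, SDC1, EXT2, GPC4 and SULF1 had an unadjusted p of 0.0598, 0.0508, 0.0689 and 0.1185 in limma. The most abundant gene of the list was SDC4 (syndecan 4), between 101 and 120 FPKM, and its groups overlapped. HS3ST1, a sulfotransferase gene of the list under the minimum and described here after its values were seen, was at 0.741, 0.429 and 0.622 FPKM in agomir cells against 0.342, 0.343 and 0.314 FPKM in controls. Its agomir libraries were all higher than the controls, and limma with no minimum gave an unadjusted p of 0.0183 and an adjusted p of 0.486. Among all genes under the minimum but above 0 in some library, 3.44% had groups parted in this direction. Summed over the list, agomir libraries held 530, 540 and 527 FPKM and control libraries 552, 583 and 555 FPKM.

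Among the adaptors that carry the signal inward, the median log2 fold change of 15 genes was 0.0032, and SOS2 was higher with the agomir at an unadjusted p under 0.05. At that p, 6.63% of all genes tested were higher. SOS2, a nucleotide exchange factor gene of RAS, averaged 5.99 ± 0.260 and 5.19 ± 0.0661 FPKM with the agomir and the agomir NC (SD, n = 3 each). Its groups did not overlap, and limma gave a log2 fold change of 0.19 (SE 0.073, adjusted p = 0.403). FRS2, the docking protein gene of the receptors, was between 5.77 and 6.76 FPKM, and its groups overlapped.

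Of 14 genes of the RAS and MAP kinase cascade, NRAS and ARAF were higher at an unadjusted p under 0.05 and none was lower, with a median log2 fold change of 0.046. Over all genes tested, 6.63% were higher and 4.31% lower at that p. NRAS was at 25.9, 27.7 and 24.3 FPKM in agomir cells against 22.6, 21.3 and 23.1 FPKM in controls, a log2 fold change of 0.21 (SE 0.061, limma adjusted p = 0.31). ARAF, a RAF kinase gene, had a log2 fold change of 0.20 and groups that did not overlap, and was at 0.13 without control replicate 2 (limma unadjusted p of 0.0573, 0.538 adjusted).

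Feedback inhibitors limit the signal once it has started. Of 14 of these genes tested, with a median log2 fold change of 0.052, SPRY2 and DUSP7 were higher and DUSP6 was lower at an unadjusted p under 0.05. Beside this, 6.63% of all genes tested were higher and 4.31% lower. DUSP6, a phosphatase gene that FGF and ERK signaling induce and whose product switches ERK off, was at 16.3, 16.5 and 14.4 FPKM in agomir cells against 18.9, 19.4 and 19.8 FPKM in controls. All 3 agomir libraries lay below the controls, and its log2 fold change of -0.29 (SE 0.064, 95% interval -0.44 to -0.15, limma adjusted p = 0.225) was the lowest of the 87 pathway genes tested. SPRY2, a Sprouty gene, averaged 6.14 ± 0.352 FPKM in agomir cells against 5.23 ± 0.627 FPKM in controls (SD, n = 3 each). In limma its unadjusted p was 0.0478 and its adjusted p 0.449, and leaving out any library other than control replicate 3 moved the unadjusted p above 0.05. Its log2 fold change of 0.22 was 0.135 without control replicate 2.

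DUSP7, another phosphatase gene for ERK, had a log2 fold change of 0.20. RASA1, which encodes a protein that turns RAS off, was the most abundant gene of the list, with a mean of 20.4 FPKM.

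Among 20 genes whose transcription FGF and ERK signaling are known to raise or use, 4 were higher and 2 lower at an unadjusted p under 0.05, with a median log2 fold change of 0.019. The shares over all genes tested were 6.63% higher and 4.31% lower at that p. CCND1, the gene of cyclin D1, was at 32.9, 38.6 and 34.8 FPKM in agomir cells against 29.0, 30.1 and 25.7 FPKM in controls. Every agomir library was above every control library, and its log2 fold change of 0.32 (SE 0.075, 95% interval 0.15 to 0.49, limma adjusted p = 0.252) was the highest among the 87 pathway genes tested. JUN, a subunit gene of the AP-1 transcription factor, was at 19.1, 20.04 and 18.4 FPKM in agomir cells against 16.8, 14.97 and 15.9 FPKM in controls, a log2 fold change of 0.27 (SE 0.062, limma adjusted p = 0.248).

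FOSL1, a further AP-1 subunit gene, and MYC, a growth regulator, had log2 fold changes of 0.11 and 0.16 and groups that did not overlap. FOS and IER3, both immediate early genes, had log2 fold changes of -0.21 each, and FOS alone of the pair had groups that did not overlap. IER3 was at -0.12 without agomir replicate 3 (limma unadjusted p of 0.107, 0.626 adjusted). In that setting FOS, FOSL1 and MYC had an unadjusted p of 0.0638, 0.116 and 0.0562 in limma. Of the genes under 0.05 in this list, only JUN and CCND1 stayed so (0.0026 and 0.0044). ETV4 and ETV5, transcription factor genes used as readouts of FGF signaling, were between 7.33 and 8.57 FPKM and between 1.32 and 2.18 FPKM, with overlapping groups. JUNB was the most abundant gene of the list at 180 FPKM.

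Markers of the fat lineage were compared in the same fit. Of 12 tested genes of preadipocytes and fibroblasts, DCN and NT5E were lower with the agomir at an unadjusted p under 0.05 in limma, at 2863 against 3114 FPKM and 73.2 against 87.2 FPKM (adjusted p = 0.376 and 0.209 in limma). Over the 12 genes, 4 were above 0 and 8 below, with a median log2 fold change of -0.045. Of 7 tested genes of mature fat cells, PPARG was higher, at 3.87 against 3.23 FPKM, and FABP4 was lower, at 1.90 against 2.89 FPKM, at an unadjusted p under 0.05 (adjusted p = 0.407 and 0.363 in limma). Over the 7 genes, 5 were above 0 and 2 below, with a median of 0.12. Of all genes tested, 6.63% were higher and 4.31% lower at that p. The part of these markers in the FGF values was not tested.

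**Figure D3:**
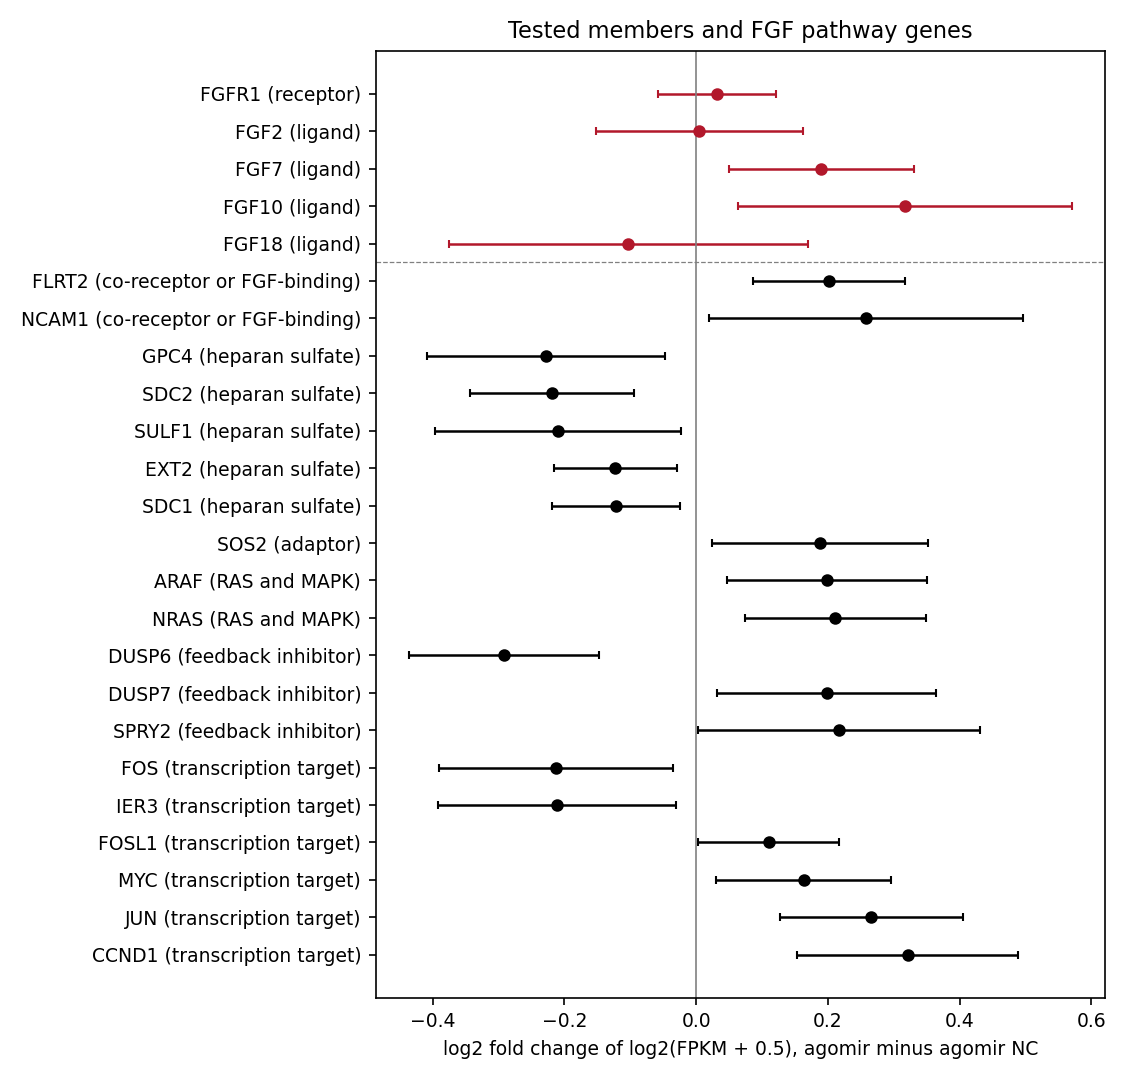
Log2 fold change of agomir over agomir NC, on the log2(FPKM + 0.5) scale, of the 5 tested members (upper rows) and of the pathway genes named in the text that had an unadjusted p under 0.05, each with its 95% interval from limma. The 5 heparan sulfate genes shown, chosen by their p, lie below 0 while 7 of the 19 tested lie above it, CCND1 at 0.32 is the highest and DUSP6 at -0.29 the lowest, and none of the genes shown passed an adjusted p of 0.05.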

How the data were processed

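The table deposited for the 6 libraries holds FPKM, and the submitters' processing notes name fastp, HISAT2 and StringTie and the genome build ARS-UCD1.2, with versions and settings not given in the sources used here. Ratios of low FPKM values between libraries did not fall into steps (at most 7 of 1538 genes shared a bin of 0.002 on the log2 scale), so whole reads could not be recovered. Genes whose mean reached 0.5 FPKM were tested as log2(FPKM + 0.5) with limma (version 3.58.1, R 4.3.3), two-sided, with a variance trend and without a block, with Benjamini-Hochberg adjustment across 12422 genes. The model was tested on simulated data. The changes put into those data were larger than the differences of the tested members, so its ability to find the latter was not measured. Sums, shares, ratios and genes under the minimum were compared with exact permutation over 20 labelings.

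The members, the pathway lists (further FGF genes, co-receptors, heparan sulfate, adaptors, RAS and MAP kinases, feedback inhibitors, transcription targets), the cell type markers and the tests were chosen with earlier results of these data known. Named were all members, each list's genes under an unadjusted p of 0.05 and its most abundant gene, and the 3 genes nearest to the most abundant member. Some genes that this rule names are not reported here, though the counts and medians of their lists include them. FGFBP2 and PAX7 had no row under these symbols or a synonym of the RefSeq table of ARS-UCD2.0. Of the other markers, 2 endothelial, 4 smooth muscle, 2 immune, 1 cartilage and 1 neural gene could be tested. None had an unadjusted p under 0.05 in limma. No skeletal muscle marker reached the minimum. With so few genes tested, these counts cannot show whether such cells differed between the groups. Primer sequences were those the study lists for checking its sequencing. Alternatives were the pseudocount, the minimum, scaling, quantile normalization, no variance trend, a replicate block and each library left out.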

Additional observations from a re-analysis of the deposited data

How the results depend on the processing

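Under an adjusted p of 0.05 in limma there were 0 members and 0 pathway genes in all 14 alternatives, beside 2 and 20 at an unadjusted p under 0.05. Among all genes the adjusted count was 1. It was 0 with no minimum, 0 when the variance trend was dropped and 0 with the replicate block, with 1604, 1249 and 1260 genes at an unadjusted p under 0.05, and it ran from 0 to 2 with 1 library left out. Members at an unadjusted p under 0.05 ran from 0 (without control replicate 1) to 2 with 1 library left out, and pathway genes from 10 to 18. Over all genes tested this count ran from 1005 to 1423. The cause was not tested. Members with non-overlapping groups numbered 4, and 3 with median-ratio scaling, a count examined after the data were seen. The summed FPKM of the receptors was 1.197 higher with the agomir, and 0.620 higher with median-ratio scaling. The FGFR1 share differed by -0.126 percentage points, and by -0.197 to 0.012 with 1 library left out, the last without control replicate 1. FGF2, at a log2 fold change of 0.0049, was at -0.011 with median-ratio scaling, at -0.019 with quantile normalization and at -0.026 to 0.040 with 1 library left out, below 0 without agomir replicate 1 (-0.0099), agomir replicate 3 (-0.015) or control replicate 2 (-0.026). Of 120 alternative values of the members, 113 had, for tested genes, the same direction and the same outcome after adjustment or, for genes under the minimum, moved by less than the SD between libraries. Among these small moves were changes of sign without agomir replicate 2 or control replicate 1, in FGFRL1 (0.0099 to -0.036 and -0.059) and FGF1 (-0.042 to 0.073 and 0.026). The other 7 were the 5 of FGF2 and, with a pseudocount of 0.1, FGFR3 (0.64 against 0.33) and FGFR4 (-0.28 against -0.097). FGF9 was at 1.23 with a pseudocount of 0.1 and at 0.28 with 1, against 0.49. All 280 alternative values of the 20 pathway genes kept their direction and stayed above the adjusted threshold. Libraries sharing a replicate number had deviations correlated at -0.051, 0.053 and 0.039, so the numbers were not taken as pairs, and the block changed no adjusted call of a member or pathway gene (2 members and 17 pathway genes at an unadjusted p under 0.05). Depth, which is unknown, limits every value near 0.5 FPKM or lower.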
